A study of Mus musculus with 34 samples.

Results

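Liver zonation genes are read here as pericentral, with *Glul*, *Cyp2e1*, *Cyp1a2*, *Oat* and *Axin2*, or periportal, with *Cdh1*, *Hal*, *Sds*, *Gls2* and *Cyp2f2*. These 10 genes were taken from 22350 protein-coding genes because their zone of expression is well known. For each gene, the binding sites of HDAC3, PROX1 and HNF4α were collected in a window that opens 50 kb upstream of the transcription start site (TSS) and closes 2 kb beyond the gene. The 10 windows span 731 kb of the mouse genome mm9 and hold 58 of the 28631 HDAC3 and PROX1 peaks and 40 of the 24253 HNF4α peaks.

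Hepatocytes differ along the axis of the liver lobule, from the portal vein, where blood enters, to the central vein, where it leaves. Wnt ligands from the central vein endothelium switch on β-catenin and its DNA-binding partners TCF and LEF in the nearest hepatocytes, which carry out glutamine synthesis and much of the metabolism of foreign compounds, whereas periportal hepatocytes take up the larger part of amino acid breakdown, urea synthesis and glucose production. HNF4α is a nuclear receptor that keeps hepatocytes differentiated and is known to hold some pericentral genes low in periportal cells. HDAC3 is the histone deacetylase of the NCoR corepressor complex, and PROX1 is a homeobox protein of the hepatocyte that associates with it.

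ChIP-seq, in which chromatin fragments bound by a factor are precipitated and sequenced, was performed on whole livers of C57B/6 male mice, 10 weeks old, collected at zeitgeber time 10. By the labels, control livers with no further genotype gave 3 libraries for HDAC3 and 3 for PROX1 and 2 HNF4α libraries came from livers of *Hnf4α* floxed mice in which, by the study's methods, the control virus AAV8 TBG *Egfp* took the place of *Cre*. Each factor has 1 list of peaks called on its pooled libraries, so no spread between livers can be given, its depth is unknown, and no difference below carries a test. Whole-liver chromatin mixes all zones, so whether a peak was bound in pericentral or in periportal hepatocytes was not measured, and no expression was analysed here.

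A peak present with the same coordinates in the HDAC3 and PROX1 lists was called co-bound, and a peak in 1 of these lists alone HDAC3-only or PROX1-only. Over the genome, 20039 peaks were co-bound, 7384 PROX1-only and 1208 HDAC3-only. HNF4α was scored as present, written as with HNF4α, where its peak took in 50% or more of the 200 bp. Only the HNF4α list carries a level, the HOMER score of each peak, which has a median of 41.9 and a 90th percentile of 82.5 over all HNF4α peaks. Each share is given with its 95% Wilson interval, a measure of counting error alone, and peaks of 1 gene share a locus.

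The sequences of the peaks on which the findings turn were read from the NCBIM37 assembly, which is mm9, in the direction of the gene. The first to be shown are the 5 co-bound peaks of the pericentral windows that hold the TCF/LEF letters ATCAAAG on either strand, a set chosen after the motif matches had been seen. Capitals mark the matches to the motifs searched, which are described with the motif counts, and a match on the opposite strand reads as its reverse complement, CTTTGAT for TCF/LEF.
Cyp2e1 6.99 kb upstream (chr7:147942545-147942744, forward strand): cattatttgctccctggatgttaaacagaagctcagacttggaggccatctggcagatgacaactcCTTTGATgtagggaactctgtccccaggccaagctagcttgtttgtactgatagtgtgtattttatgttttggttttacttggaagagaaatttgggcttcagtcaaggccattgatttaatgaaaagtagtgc
Cyp1a2 2.55 kb upstream (chr9:57533915-57534114, reverse strand): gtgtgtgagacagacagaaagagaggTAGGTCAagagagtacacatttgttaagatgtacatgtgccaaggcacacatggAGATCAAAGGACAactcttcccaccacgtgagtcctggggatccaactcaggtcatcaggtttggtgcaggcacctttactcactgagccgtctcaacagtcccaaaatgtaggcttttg
Cyp1a2 39.8 kb upstream (chr9:57571147-57571346, reverse strand): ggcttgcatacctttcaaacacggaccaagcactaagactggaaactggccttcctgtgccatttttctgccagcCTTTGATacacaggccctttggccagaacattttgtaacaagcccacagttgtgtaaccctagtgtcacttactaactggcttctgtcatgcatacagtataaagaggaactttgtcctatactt
Oat 1.93 kb upstream (chr7:139769906-139770105, reverse strand): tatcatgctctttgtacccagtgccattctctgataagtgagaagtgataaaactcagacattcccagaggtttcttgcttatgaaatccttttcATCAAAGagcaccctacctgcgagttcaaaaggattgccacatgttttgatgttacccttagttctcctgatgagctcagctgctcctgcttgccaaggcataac
Oat 35.3 kb upstream (chr7:139803277-139803476, reverse strand): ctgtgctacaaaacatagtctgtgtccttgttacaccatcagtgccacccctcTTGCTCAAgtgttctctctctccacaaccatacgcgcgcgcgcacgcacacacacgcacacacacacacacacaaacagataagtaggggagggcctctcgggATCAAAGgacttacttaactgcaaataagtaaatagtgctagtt
Shown next are the co-bound peaks within 1 kb of the TSS from which the window of their own zonation gene is measured. They lie at the promoters of 2 pericentral and 2 periportal genes and are given without the bases past the TSS. Peaks in promoters of neighbouring genes or of other transcripts are not in this set.
Cyp2e1 promoter (chr7:147949383-147949582, forward strand): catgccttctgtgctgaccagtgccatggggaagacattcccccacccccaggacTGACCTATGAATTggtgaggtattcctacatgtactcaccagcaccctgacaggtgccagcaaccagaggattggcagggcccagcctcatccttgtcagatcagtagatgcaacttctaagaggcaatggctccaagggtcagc
Cyp1a2 promoter (chr9:57531463-57531656, reverse strand): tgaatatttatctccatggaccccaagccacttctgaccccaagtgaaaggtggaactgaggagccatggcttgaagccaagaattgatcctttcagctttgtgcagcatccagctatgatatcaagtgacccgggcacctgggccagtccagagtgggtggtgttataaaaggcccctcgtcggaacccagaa
Hal promoter (chr10:92951316-92951512, forward strand): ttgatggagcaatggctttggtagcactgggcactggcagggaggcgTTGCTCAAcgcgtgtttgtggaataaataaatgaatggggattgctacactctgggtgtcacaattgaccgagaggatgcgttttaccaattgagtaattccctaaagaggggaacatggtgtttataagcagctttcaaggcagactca
Cyp2f2 promoter (chr7:27904784-27904927, forward strand): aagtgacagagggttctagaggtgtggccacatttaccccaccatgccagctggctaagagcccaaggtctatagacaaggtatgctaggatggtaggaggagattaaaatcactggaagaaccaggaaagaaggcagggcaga
The last 3 are the single peak of *Glul*, which is the defining pericentral enzyme, and the co-bound peaks with the highest HNF4α score at *Hal* and *Cyp2f2*.
Glul 1.66 kb downstream (chr1:155748636-155748835, forward strand): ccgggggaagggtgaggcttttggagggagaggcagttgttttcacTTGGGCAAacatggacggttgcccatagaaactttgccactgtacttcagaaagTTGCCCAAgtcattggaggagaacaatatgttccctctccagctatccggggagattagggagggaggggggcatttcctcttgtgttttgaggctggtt
Hal 27.3 kb downstream (chr10:92978710-92978909, forward strand): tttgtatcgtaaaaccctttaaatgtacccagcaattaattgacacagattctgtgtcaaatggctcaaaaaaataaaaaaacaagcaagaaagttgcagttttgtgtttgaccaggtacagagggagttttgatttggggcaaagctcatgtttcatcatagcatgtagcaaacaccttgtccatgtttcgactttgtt
Cyp2f2 4.61 kb downstream (chr7:27909442-27909641, forward strand): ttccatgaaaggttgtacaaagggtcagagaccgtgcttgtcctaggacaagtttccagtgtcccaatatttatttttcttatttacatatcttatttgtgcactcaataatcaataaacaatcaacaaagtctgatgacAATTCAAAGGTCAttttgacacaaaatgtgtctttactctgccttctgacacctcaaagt

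Co-binding of HDAC3 and PROX1 was found at every one of the 10 genes, in both zones. Across all protein-coding genes, 38.4% had at least 1 co-bound peak in the same window, and 31.1% had one or more that were with HNF4α, which all 10 zonation genes also had. Of all genes with a co-bound peak, 81.1% had one with HNF4α. The 10 zonation genes were picked as well-known genes of hepatocytes, so the count of 10 is a description of these loci and not a property of zonation. In the windows 41 peaks were co-bound, 17 were PROX1-only and 0 were HDAC3-only. PROX1-only peaks were present at 7 of the 10 genes against 25.2% of all genes, and HDAC3-only peaks at none of the 10 against 7.41% of all genes. The number of co-bound peaks per gene ran from 1 at *Glul* to 9 at *Cyp2e1*, so members of the same zone lay at both ends of the range.

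**Figure D1:**
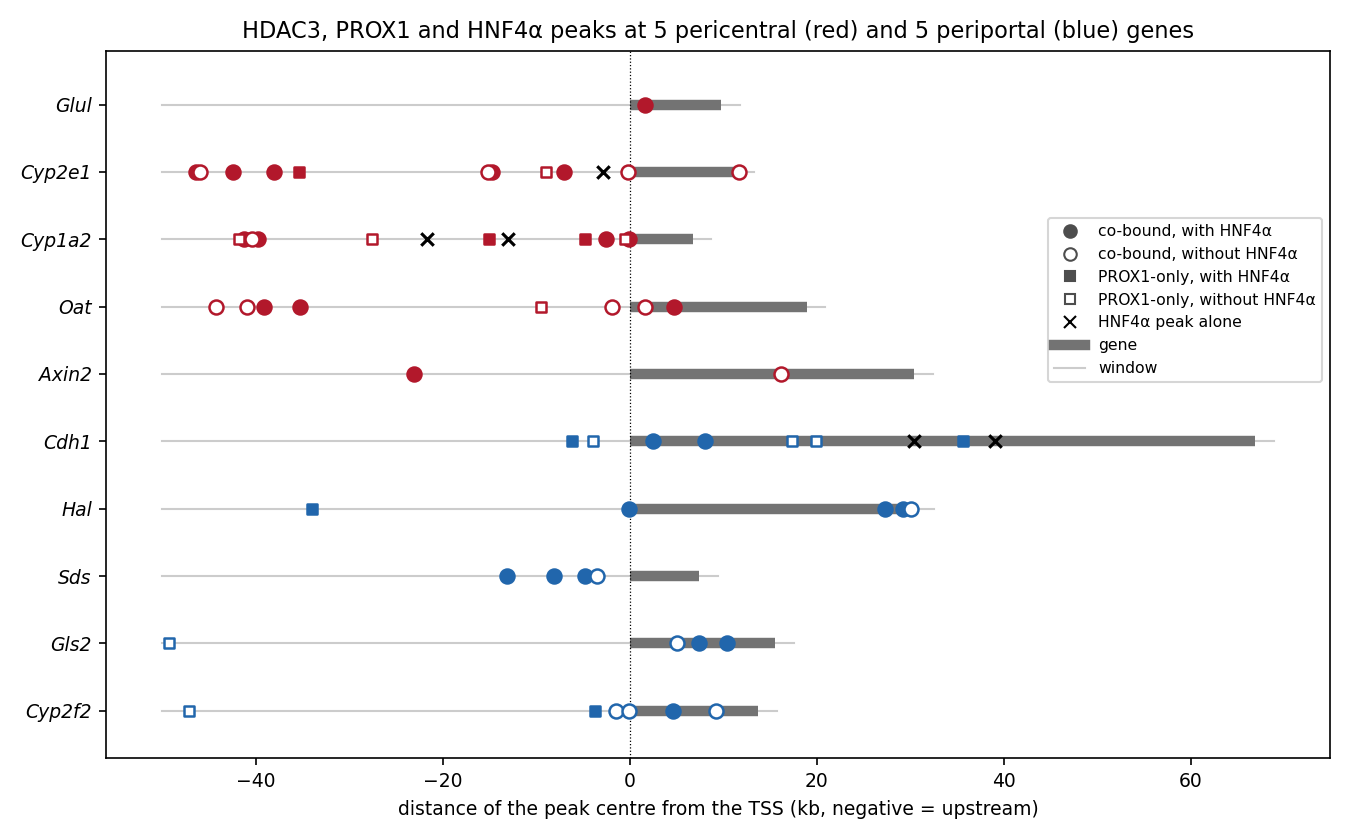
Positions of the peaks in each gene window, with distance from the TSS in kb on the x axis and 1 row per gene. Circles are co-bound and squares PROX1-only peaks, filled where HNF4α covers at least 50%, and crosses are HNF4α peaks on neither class, and symbols of close peaks overlap. The 24 pericentral co-bound peaks include clusters around 40 kb upstream of *Cyp2e1*, *Cyp1a2* and *Oat*, whereas *Cdh1*, *Gls2* and *Glul* have their co-bound peaks downstream of the TSS.

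*Glul* encodes glutamine synthetase, which is made in the last layers of hepatocytes around the central vein. It lies at chr1:155747074-155756853 on the forward strand, and its window held 1 co-bound peak, 0 PROX1-only peaks and 1 HNF4α peak. The co-bound peak is centred 1.66 kb past the TSS and within 1 kb of the start of another *Glul* transcript, and HNF4α covered 78.0% of it with a score of 30.6, which is higher than 25.6% of all HNF4α peaks. Of all genes, 61.6% had fewer co-bound peaks than *Glul*, a place that only reflects that 1 peak is more than none. The pericentral gene with the narrowest known expression had the smallest number of sites of the 10, at a low HNF4α score.

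*Axin2* encodes a scaffold of the β-catenin destruction complex and is a common reporter of Wnt activity. At chr11:108781663-108812097 on the forward strand, its window held 2 co-bound peaks and 0 PROX1-only peaks. The peak 23.1 kb upstream, in intergenic sequence, was covered by HNF4α at a score of 29.2, and the peak 16.2 kb downstream, in an intron of *Axin2*, was not touched by an HNF4α peak. In these windows *Axin2* and *Glul* were the pericentral genes with the fewest sites and the lowest highest scores. For *Axin2* the count depends on the window. With peaks assigned to the nearest TSS it had 6 co-bound peaks, against 5 at *Cyp2e1* and 1 at *Glul*. Windows from 100 kb upstream held 5 at *Axin2*, 10 at *Cyp2e1* and 1 at *Glul*.

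*Cyp2e1* encodes a cytochrome P450 that oxidizes ethanol and paracetamol. At chr7:147949638-147960874 on the forward strand, it had the most co-bound peaks of the 10, with 9 in its window, 5 of them with HNF4α, and 2 PROX1-only peaks. Fewer co-bound peaks were found at 98.0% of all protein-coding genes. Its promoter carried a co-bound peak 0.155 kb upstream of the TSS, beside an HNF4α peak with a score of 80.6 that covered 49.0% of it, just under the limit of 50%. The promoter therefore counts as co-bound without HNF4α although 59.0% of the HNF4α peak lies on it. The nearest co-bound peak on the other side of the limit is one of *Oat*, 35.3 kb upstream, with 56.0% covered. The strongest HNF4α sites of *Cyp2e1* were a group of 3 co-bound peaks 46.4, 42.4 and 38.0 kb upstream, with scores of 90.5, 96.6 and 85.3. All 3 scores exceed the 90th percentile of the HNF4α list. The TSS nearest to these peaks is that of the olfactory receptor gene *Olfr541*, and no other protein-coding gene starts inside the window of *Cyp2e1*. Closer to the gene, the co-bound peaks 14.8 and 6.99 kb upstream had scores of 45.2 and 65.0. The co-bound peaks 46.0 and 15.1 kb upstream and 11.7 kb downstream of the TSS were not touched by HNF4α, and an HNF4α peak 2.82 kb upstream, with a score of 36.3, lay on no HDAC3 or PROX1 peak.

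*Cyp1a2* encodes the P450 that metabolizes caffeine and is induced through the aryl hydrocarbon receptor. At chr9:57524744-57531462 on the reverse strand, its window held 5 co-bound peaks, 4 of them with HNF4α, and 5 PROX1-only peaks, 2 of them with HNF4α. The promoter peak, centred 0.0950 kb upstream of the TSS, had an HNF4α score of 42.4, next to the median of the whole list, and the peak 2.55 kb upstream a score of 55.1. The highest score at any of the 10 genes was 128.2, at the peak 39.8 kb upstream, which exceeds 99.7% of all HNF4α peaks. That peak and its neighbours 40.4 and 41.2 kb upstream lie in an intron of *Edc3*, which encodes an mRNA decapping factor, and the TSS nearest to them is that of *Edc3*. The paralogue *Cyp1a1* also starts in this window, and an HNF4α peak without HDAC3 or PROX1, with a score of 42.9, lies in its promoter. The list therefore cannot tell which of the 3 genes a distal site belongs to.

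*Oat* encodes ornithine aminotransferase, which turns ornithine from arginine breakdown towards glutamate. At chr7:139749158-139768081 on the reverse strand, its window held 7 co-bound peaks, more than at 95.9% of all genes, of which 3 were with HNF4α. Their scores were low, at 37.2 in an intron 4.69 kb downstream of the TSS, and 36.3 and 32.0 at the peaks 35.3 and 39.1 kb upstream. The peaks 1.62 kb downstream and 1.93 kb upstream, the closest to the TSS, were not touched by HNF4α. Of the 7 peaks, 4 lie in introns of *Lhpp*, a phosphatase gene that starts in the same window and that is itself listed here among further pericentral genes. Touching the outermost of these, 44.2 kb upstream, an HNF4α peak with a score of 60.8 covered 14.5%, so it was not counted.

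*Hal* encodes histidine ammonia-lyase, the first enzyme of histidine breakdown. At chr10:92951513-92982049 on the forward strand, its window held 4 co-bound peaks, 3 of them with HNF4α, and 1 PROX1-only peak with HNF4α. The promoter peak, 0.0970 kb upstream of the TSS, had an HNF4α score of 64.1. The highest score among the periportal genes was 116.9, at an intronic peak 27.3 kb downstream of the TSS, which exceeds 98.9% of the list. This peak and the 2 exonic ones 29.2 and 30.1 kb downstream are nearer to the TSS of *Amdhd1*, the gene of a later enzyme of histidine breakdown that starts beyond the end of *Hal*. Both genes belong to the same pathway, and the lists do not separate their sites.

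*Sds* encodes serine dehydratase, which turns serine into pyruvate, and *Gls2* encodes the liver type glutaminase, which releases ammonia for urea synthesis. *Sds*, at chr5:120926540-120933941 on the forward strand, had 4 co-bound peaks, of which 3 carried HNF4α, and 0 PROX1-only peaks. Its HNF4α scores were 27.3, 48.5 and 81.5 at 13.1, 8.08 and 4.76 kb upstream, rising towards the gene, and the closest peak, 3.54 kb upstream, was not touched. All 4 lie in the intron or promoter of the related gene *Sdsl*, whose TSS is nearer than that of *Sds*. *Gls2*, at chr10:127631513-127647060 on the forward strand, had 3 co-bound peaks, all inside the gene at 5.10, 7.46 and 10.4 kb from the TSS. The middle one had a score of 77.7 and the last, in an exon, 29.7, while the first was covered over 38.5% by a peak with a score of 57.5 and so was not counted. The only PROX1-only peak of *Gls2* lay 49.3 kb upstream in an intron of *Rbms2*.

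*Cyp2f2* encodes a P450 used as a periportal marker, and *Cdh1* encodes E-cadherin, the adhesion protein that is higher in periportal hepatocytes. *Cyp2f2*, at chr7:27904928-27918679 on the forward strand, had 4 co-bound peaks, of which only the intronic one 4.61 kb downstream was with HNF4α, at a score of 105.1. Its promoter peak, centred 0.0440 kb upstream of the TSS, and the peaks 1.43 kb upstream and 9.21 kb downstream were not touched by an HNF4α peak. *Cdh1*, at chr8:109127251-109194146 on the forward strand, was the only one of the 10 with more PROX1-only than co-bound peaks. It had 2 co-bound peaks, both intronic with HNF4α at scores of 25.4 and 36.8, and 5 PROX1-only peaks, 2 of them with HNF4α at 42.9 and 35.8. A further 2 HNF4α peaks in its introns, with scores of 35.8 and 21.7, lay on neither class. A co-bound peak within 1 kb of the TSS was found at 4 of the 10 genes, the enzyme genes *Cyp2e1*, *Cyp1a2*, *Hal* and *Cyp2f2*, against 5.06% of all genes.

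**Figure D2:**
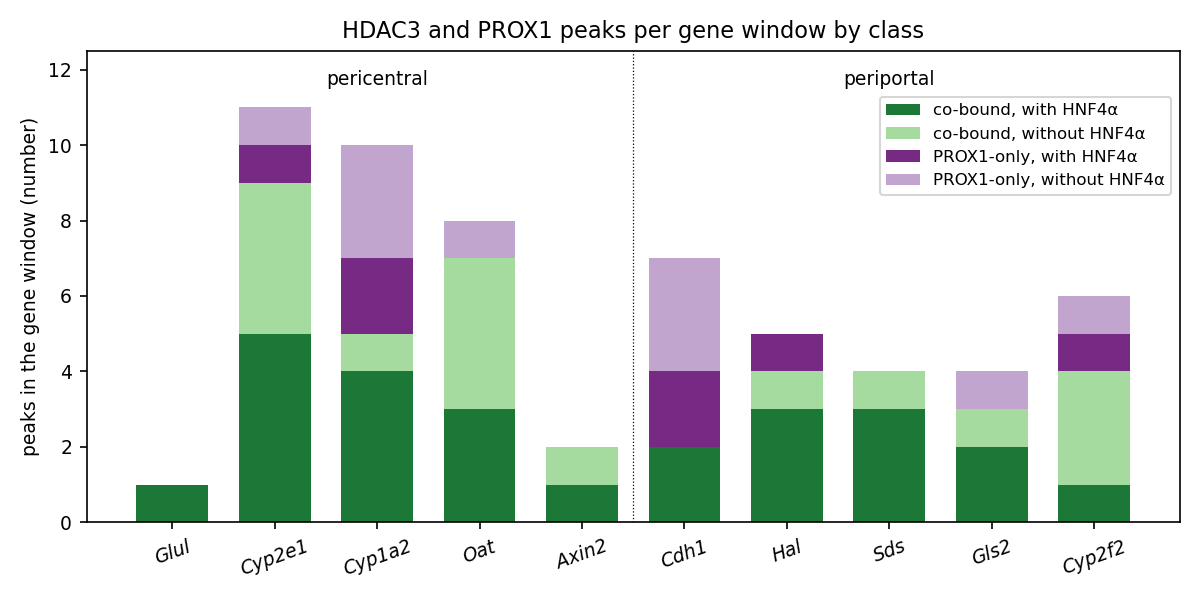
Number of HDAC3 and PROX1 peaks in each gene window, stacked by class and by cover with HNF4α. *Cyp2e1* has 9 co-bound and 2 PROX1-only peaks, *Cyp1a2* 5 and 5, and *Glul* a single co-bound peak.

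Between the zones, which one held more co-bound peaks depended on the length of the window, and the share of them with HNF4α differed by less than its counting error. The 5 pericentral windows, 337 kb in all, held 24 co-bound peaks, or 7.12 per 100 kb, and the 5 periportal windows, 394 kb in all, held 17, or 4.31 per 100 kb. With windows from 10 kb upstream the order turned, to 10 pericentral and 16 periportal co-bound peaks. In the longer windows the pericentral excess came from *Cyp2e1*, *Oat* and *Cyp1a2*, which together hold 21 of the 24, whereas *Glul* and *Axin2* had 1.62 and 2.43 per 100 kb, below every periportal gene but *Cdh1* with 1.68, which lies between them. HNF4α covered 14 of the 24 pericentral co-bound peaks (58.3%, 95% CI 38.8 to 75.5) and 11 of the 17 periportal ones (64.7%, 95% CI 41.3 to 82.7). The difference, pericentral minus periportal, was -6.37 percentage points with a 95% Newcombe interval from -32.9 to 22.7, which includes 0 and is wide. Both shares lie near the 61.3% of all co-bound peaks of the genome with HNF4α. Single genes move the difference: without *Cyp2f2* the periportal share was 76.9%, and the difference -18.6 points, and without *Oat* the difference was 0.

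Over the genome, 36.7% of PROX1-only peaks were with HNF4α. At the zonation genes 3 of 8 pericentral PROX1-only peaks (37.5%, 95% CI 13.7 to 69.4) and 4 of 9 periportal ones (44.4%, 95% CI 18.9 to 73.3) were with HNF4α. These intervals include the genome value and are too wide to separate the zones.

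**Figure D3:**
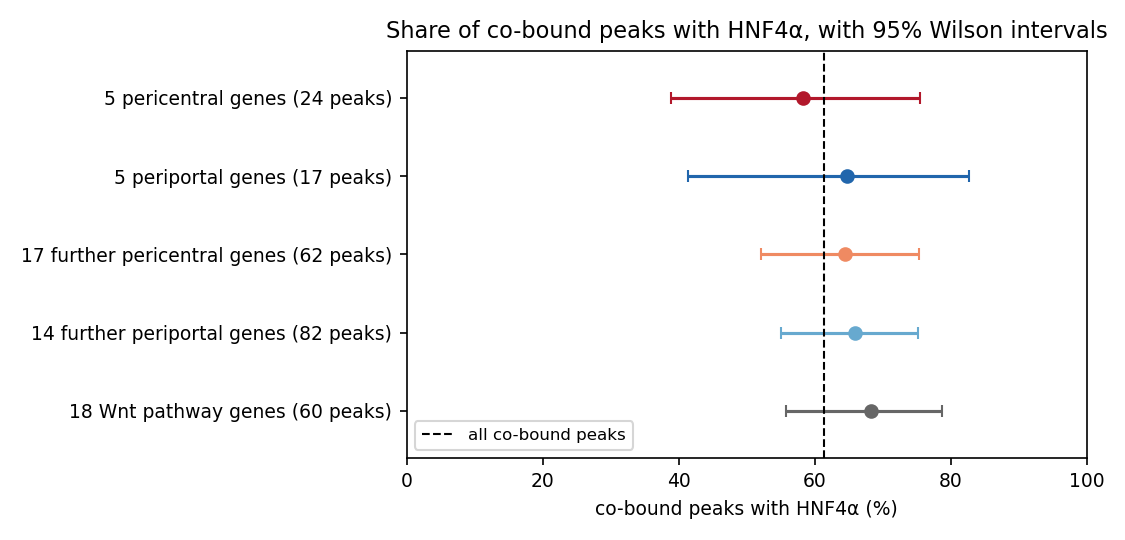
Share of co-bound peaks with HNF4α, in percent with 95% Wilson intervals, at the 5 pericentral and 5 periportal genes, at further genes of each zone and at Wnt pathway genes. The dashed line is the 61.3% over all co-bound peaks, and it lies inside all 5 intervals.

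Sites of HNF4α were present at all 10 genes, against 49.8% of all genes with at least 1 HNF4α peak. Of the 40 HNF4α peaks in the windows, 28 touched a co-bound peak, 7 a PROX1-only peak and 5 neither. The same split was not computed over all HNF4α peaks, so these counts describe the windows only. The pericentral windows held 22 HNF4α peaks with scores from 27.8 to 128.2 and a median of 43.5, and the periportal windows 18 with scores from 21.7 to 116.9 and a median of 41.0. Both medians are next to the 41.9 of the whole list. At co-bound peaks with HNF4α, the median score was 50.2 in the pericentral and 48.5 in the periportal windows, against 52.3 over all such peaks of the genome. The scores of the zones overlapped over most of their range. The highest score of a gene ran from 29.2 at *Axin2* to 128.2 at *Cyp1a2* among the pericentral genes. Among the periportal genes it ran from 42.9 at *Cdh1* to 116.9 at *Hal*.

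**Figure D4:**
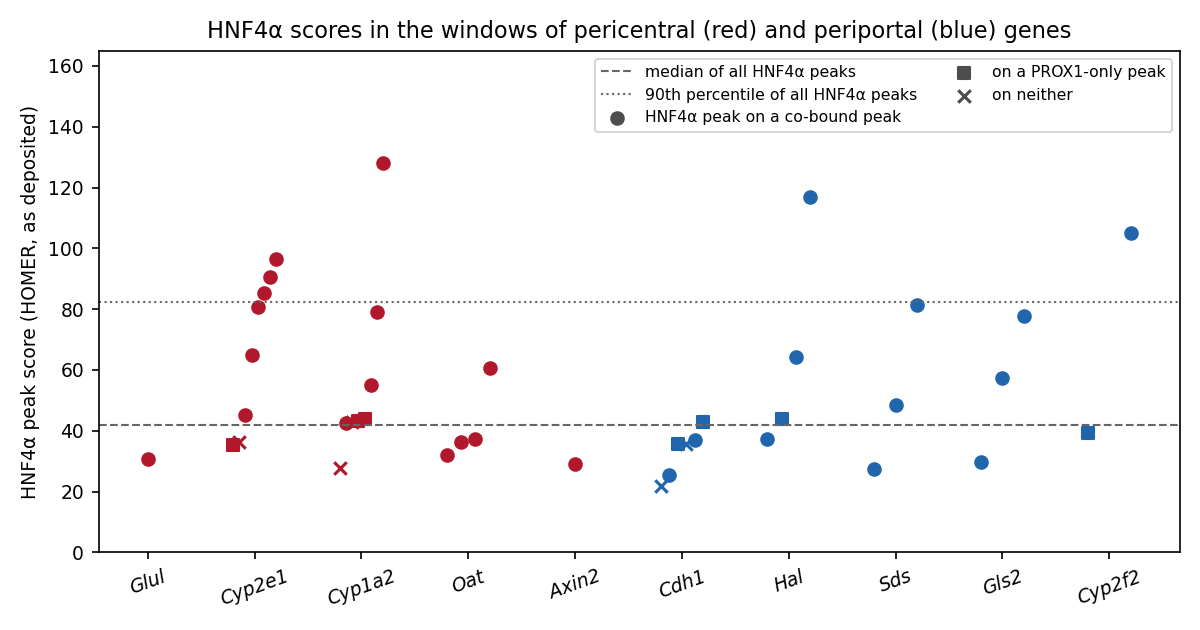
HOMER score of each HNF4α peak in the windows of the 10 genes, with symbols for the class of peak it touches, and lines at the median of 41.9 and the 90th percentile of 82.5 of the HNF4α list. *Cyp1a2*, *Hal*, *Cyp2f2* and *Cyp2e1* have peaks above the upper line, and *Glul*, *Axin2*, *Oat* and *Cdh1* have no co-bound peak counted with HNF4α above the median.

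The co-bound peaks were mostly away from promoters, with 7 in a promoter of any gene, 3 in exons, 20 in introns and 11 between genes. The *Oat* peak 1.93 kb upstream counts as intronic only through an *Fgfr2* gene model of the annotation that spans *Oat*. Of the 11 intergenic peaks, 10 belong to pericentral windows, 8 of them to that of *Cyp2e1*, and 1 to a periportal window. Over the genome, 7.91% of co-bound peaks lay in promoters, 2.42% in exons, 46.3% in introns and 43.4% between genes. The nearest TSS was that of the zonation gene itself for 13 of the 24 pericentral and 10 of the 17 periportal co-bound peaks. At the remaining 18 peaks a neighbouring gene starts closer.

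Motif matches were counted in the 200 bp of each co-bound peak, on both strands. DR1, the direct repeat bound by HNF4 and other receptor dimers, was searched as 2 copies of AGGTCA with 1 base between them and at most 2 mismatches. The other motifs were searched exactly, as CAAAGTCCA for the form favoured by HNF4, ATCAAAG for TCF/LEF, TTGCNNAA for C/EBP and TAGGTCA for the monomer site of ROR and Rev-erb. These overlap in letters, since CAAAG stands in both the HNF4 and TCF/LEF motifs and AGGTCA in both DR1 and the ROR/Rev-erb motif. A match is a run of letters and not a measured site.

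The TCF/LEF letters, ATCAAAG, stood in 5 of the 24 pericentral co-bound peaks (20.8%, 95% CI 9.24 to 40.5) and in 0 of the 17 periportal ones (95% CI 0 to 18.4), against 5.70% of all co-bound peaks. The 5 peaks lie in the windows of *Cyp2e1*, *Cyp1a2* and *Oat*, and all 3 genes encode pericentral enzymes, while the peaks of *Glul* and *Axin2* held none. The peak 39.8 kb upstream of *Cyp1a2* lies in an intron of *Edc3*, and the peak 35.3 kb upstream of *Oat* in one of *Lhpp*. Those neighbours have the nearer TSS, so the window does not show which gene these sites belong to. HNF4α was present at 4 of the 5 peaks, against 818 of the 1143 co-bound peaks of the genome with these letters. The exception was the *Oat* peak 1.93 kb upstream, and the *Cyp1a2* peak with the highest score at these genes, 128.2, is one of the 4. The zones' intervals overlap, the pericentral interval rests on 3 loci, and no test of the difference was made. A PROX1-only peak of the periportal gene *Cdh1*, 35.6 kb downstream of its TSS, also held ATCAAAG, so the letters were not confined to pericentral windows. In windows of 400 bp around the peak centres, 5 of 24 and 1 of 17 held it, against 8.91% of all co-bound peaks. In the *Cyp1a2* peak 2.55 kb upstream, printed above, the TCF/LEF match stands inside the DR1 match AGATCAAAGGACA at chr9:57534022-57534034, so the same bases count for both motifs.

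DR1 matched 5 of the 24 pericentral (20.8%, 95% CI 9.24 to 40.5) and 2 of the 17 periportal co-bound peaks (11.8%, 95% CI 3.29 to 34.3), against 13.0% of all co-bound peaks. Of the 7 matches, all with 2 mismatches, 3 are in *Cyp2e1*, 2 in *Cyp1a2* and 1 each in *Sds* and *Cyp2f2*. Against 642 of the 2599 co-bound peaks of the genome with DR1, 2 of the 7 peaks, both pericentral, were not counted with HNF4α. One of these is the *Cyp2e1* promoter, where AATTCATAGGTCA on the reverse strand also holds the ROR/Rev-erb site. With at most 1 mismatch no zonation gene had a DR1 match, against 2.71% of all co-bound peaks. CAAAGTCCA was in 0 of the 41 co-bound peaks (95% CI 0 to 8.57), against 2.84% of all. Among the 25 co-bound peaks with HNF4α at these genes, 5 held a DR1 match, against 15.9% of the 12284 such peaks of the genome. At most of these peaks, here as over the genome, DR1 with at most 2 mismatches was therefore not in the 200 bp. The *Hal* peak with the score of 116.9 printed above is an example, although it holds a match when 3 mismatches are allowed.

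C/EBP letters were in 2 pericentral (8.33%, 95% CI 2.32 to 25.8) and 3 periportal co-bound peaks (17.6%, 95% CI 6.19 to 41.0), against 26.1% of all co-bound peaks. The single *Glul* peak held the match TTGCCCAA in both orientations, and the *Hal* promoter held TTGCTCAA. All 5 of these peaks were with HNF4α, against 3382 of the 5237 co-bound peaks of the genome that hold these letters. The ROR/Rev-erb site was in 2 pericentral (8.33%, 95% CI 2.32 to 25.8) and 2 periportal peaks (11.8%, 95% CI 3.29 to 34.3), against 5.04% of all. By the 50% rule 3 of these 4 were without HNF4α, against 412 of the 1009 co-bound peaks of the genome with this site.

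**Figure D5:**
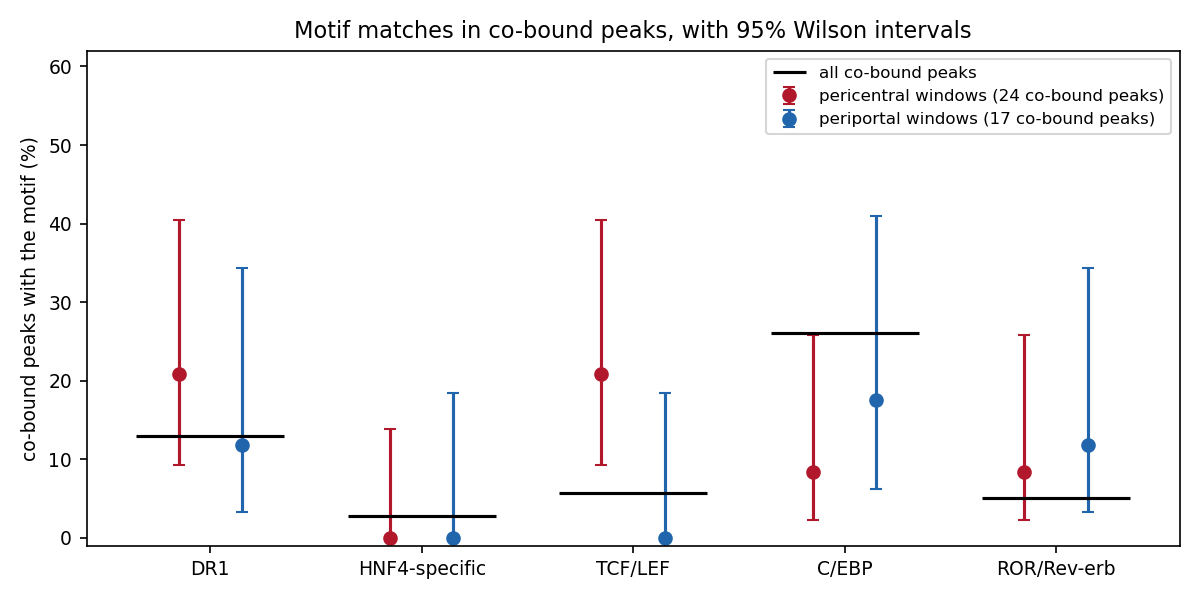
Share of co-bound peaks that hold each motif, in percent with 95% Wilson intervals, for the 24 pericentral (red) and 17 periportal (blue) co-bound peaks, with black bars at the share over all co-bound peaks. The TCF/LEF share is 20.8% at pericentral and 0 at periportal genes, against 5.70% in all, and the intervals of the zones overlap for every motif.

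Further genes of each zone, listed from general knowledge, also had co-bound peaks in most windows. Of 17 further pericentral genes, 15 had a co-bound peak and 14 a co-bound peak with HNF4α, and of 14 further periportal genes, 13 had both, against 38.4% of all genes with a co-bound peak and 31.1% with one with HNF4α. Of all genes with a co-bound peak, 81.1% had one with HNF4α. The further genes, too, were picked as known genes of their zone, so these counts describe the lists and not a property of zonation. The median number of co-bound peaks was 3 per further pericentral gene and 6 per further periportal gene, the opposite order to the 24 and 17 peaks of the 10 genes in the same window. The shares of co-bound peaks with HNF4α were 64.5% (95% CI 52.1 to 75.3) of 62 and 65.9% (95% CI 55.1 to 75.2) of 82 peaks, and both intervals include the 61.3% of all. *Oat* and *Lhpp* are neighbours and share peaks, so the pericentral lists are not independent of each other. Peaks were counted per gene window, so a peak in overlapping windows of a list enters its share and interval more than once. *Cyp2c50* and *Cyp2c54*, both on chromosome 19, each had 3 co-bound peaks, all with HNF4α, and 2 PROX1-only peaks. Whether these are the same peaks was not checked. The most sites with HNF4α were at *Rnf43*, the gene of a ubiquitin ligase that removes Wnt receptors (6), *Lhpp* (6) and *Cyp27a1*, the gene of a sterol hydroxylase of bile acid synthesis (4). In the periportal list they were at *Gldc*, for the glycine cleavage system (10), *Asl*, of the urea cycle (6), and with 5 each *Cps1*, which starts the urea cycle, *Pck1* and *G6pc*, of glucose production, and *Ctsc*, a lysosomal protease gene. No co-bound peak was found at *Nkd1*, a Wnt target, *Rhbg*, an ammonium transporter gene, or *Hsd17b6*.

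Of 18 genes of the Wnt pathway itself, 11 had a co-bound peak and 9 a co-bound peak with HNF4α, against 38.4% and 31.1% of all genes. Of all genes with a co-bound peak, 81.1% had one with HNF4α. The 60 co-bound peaks of the Wnt pathway genes included 41 with HNF4α (68.3%, 95% CI 55.8 to 78.7). The most were at the co-receptor gene *Lrp6* (10 with HNF4α), at *Lgr4*, which encodes an R-spondin receptor (9), and at the co-receptor gene *Lrp5* and the TCF gene *Tcf7l2* (6 each). The genes without a co-bound peak were *Tcf7*, *Lef1*, *Rspo3*, *Wnt2*, *Fzd1*, *Dvl1* and *Sp5*. Of the genes of secreted ligands and R-spondins in the list, *Wnt2* and *Rspo3* had none and *Wnt9b* had 1 co-bound peak, without HNF4α, and 1 PROX1-only peak. *Ctnnb1*, the β-catenin gene, had 1 co-bound peak, with HNF4α.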

How the data were processed

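The authors aligned ChIP-seq reads to mm9 with Bowtie 0.12.7 (version per the submitters' processing notes), removed duplicates, pooled the libraries of each factor and called peaks with HOMER against IgG, and the HNF4α list is described as filtered on the *Hnf4α* knockout. The 3 deposited lists give positions, and the HNF4α list also the authors' HOMER score per peak. Neither read counts nor replicates are in them, so their depth is unknown. The HDAC3 and PROX1 lists each hold 3 empty lines, which were left out, and co-bound peaks follow the authors' classification.

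Genes were taken from GENCODE M1 on mm9, and promoters reach 1 kb to either side of a TSS. The members, gene lists and motifs were chosen with earlier results of these data known. All 10 genes are named, and of the further lists those without a co-bound peak and the 3 with most co-bound peaks with HNF4α, with ties. Outside this rule *Ctnnb1* was added after its values were seen, and *Wnt9b* is named with the other listed ligand and R-spondin genes. Shares carry Wilson and Newcombe intervals. On simulated data, 500 of 500 planted classes, covers, windows and motifs each were recovered. Python 3.11.15, numpy 2.4.6, scipy 1.17.1, pysam 0.24.0 and matplotlib 3.10.9 were used. Alternatives changed the cover, window, nearest TSS, scores, merging, genes left out and motif settings. RNA-seq, H3K27Ac and knockout libraries were not analysed here.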

Additional observations from a re-analysis of the deposited data

How the results depend on the processing

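Of 132 alternative values for the zones and lists, 120 stayed within the interval or within 1.5 times the main count. Some of them could not move, since leaving out a gene of 1 zone leaves the share of the other zone as it was. The HDAC3-only counts of the zones were 0 throughout, and the intervals are wide, so this tally is no measure of robustness. With HNF4α peaks above the median score alone, HNF4α covered 37.5% of pericentral and 35.3% of periportal co-bound peaks, the difference turned to 2.21 points, and 2 pericentral genes kept such a peak, without *Glul*, *Oat* and *Axin2*; fewer HNF4α peaks enter by construction. Windows from 10 kb upstream held 10 pericentral co-bound, 4 PROX1-only and 8 HNF4α peaks against 16, 6 and 16 periportal ones, so the pericentral excess of co-bound peaks turned into a periportal one, and *Axin2* had none with HNF4α. Assigning peaks to the nearest TSS left 5 pericentral PROX1-only and 11 periportal co-bound peaks, and *Sds* had none with HNF4α. DR1 with 1 mismatch matched 0% in either zone, against 2.71% of all co-bound peaks. With 3 mismatches it matched 37.5% of pericentral and 35.3% of periportal co-bound peaks, against 43.2% of all. Within 100 bp it matched 20.8% of pericentral and 0% of periportal ones, against 7.83% of all. Counting HNF4α over at least 50% of either peak, chosen after seeing the data, gave a difference of -2.21 points. Over all alternatives and genes left out the difference ran from -18.6 to 2.21 points. Of 160 counts of single genes, 35 moved, 28 of them down. No paired analysis was possible because each list pools its libraries, and for the same reason no library could be left out.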
